A study of Mus musculus with 13 samples.

Results

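The genes that make cholesterol and fatty acids were followed as a set of 32 named genes in mouse melanocytes and melanocytic lesions. All 32 were listed, among 19937 genes with at least 1 probe set assigned to that gene alone, and 0 had to be skipped. By role the set holds 4 regulators (Srebf1, Srebf2, Insig1, Scap), 6 enzymes from acetyl-CoA to farnesyl pyrophosphate (Hmgcs1, Mvk, Pmvk, Mvd, Idi1, Fdps), 9 enzymes from farnesyl pyrophosphate to cholesterol (Fdft1, Sqle, Lss, Cyp51, Msmo1, Nsdhl, Hsd17b7, Sc5d, Dhcr7), 1 sterol carrier (Stard4) and 12 genes of fatty acid synthesis and of its carbon and hydrogen supply (Acly, Acaca, Acacb, Fasn, Scd1, Scd2, Elovl5, Elovl6, Fads1, Fads2, Me1, Acss2). The rule named the genes, and for a gene with several probe sets it took the set with the highest mean. The genes were chosen with earlier results of these data known.

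The mice carried combinations of altered alleles of Braf, a kinase of the growth-promoting MAP kinase cascade that is activated in many melanomas and moles, Cdkn2a, which encodes inhibitors of the cell cycle, and Lkb1, the kinase encoded by Stk11. The series concerns what release of mTORC1 does to the growth arrest that oncogenic Braf brings about in melanocytes. FACS-purified melanocytes make up 3 groups of 2 arrays. Those of Cdkn2a/Braf mice were taken at day 19, which the labels place ahead of growth arrest, and at day 50, which they place after it, and the control was Cdkn2a only, with wild-type Braf, at day 19, so the altered Cdkn2a is common to all 3. The other 3 groups are uncultured lesions: 2 arrays of melanoma with the genotype Cdkn2a/Braf, 2 of melanoma with Cdkn2a/Braf/Lkb1, and 3 of Lkb1/Braf melanocytic proliferations that were pooled. All 3 tissue groups share the altered Braf, and the proliferations alone among the 6 groups do not have Cdkn2a in the genotype. The labels call the arrays of each group biological replicates, and do not give how many animals were pooled, the ages of the tissue donors, or what drives the alleles in melanocytes.

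In mammalian cells the SREBP transcription factors, products of Srebf1 and Srebf2, turn on the genes of sterol and fatty acid synthesis. Scap escorts them out of the endoplasmic reticulum when membrane sterol is low, and the Insig proteins hold Scap back when it is high, so the sterol genes rise and fall together with sterol demand. Lkb1 activates AMPK, which inhibits acetyl-CoA carboxylase by phosphorylation, and mTORC1 promotes SREBP activity. In skin the sebaceous gland, the epidermis and the fat layer make large amounts of lipid, and Scd1 is a known sebaceous gland gene of the mouse.

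Expression is given as log2(intensity + 1), and a difference as the first group minus the second with the standard error of the limma fit over all 13 arrays. A gene was called where the p-value adjusted over all 19937 genes was under 0.05. The interquartile range of the log2 values over genes was 2.54 to 2.58 on the day 19 Cdkn2a/Braf arrays, 2.52 to 2.53 on the Cdkn2a-only arrays and 1.93 to 1.94 on the day 50 arrays. It was 2.45 to 2.53 on the Cdkn2a/Braf melanomas, 2.71 to 2.89 on the Cdkn2a/Braf/Lkb1 melanomas and 2.00 to 2.11 on the proliferations, so the groups differ in the spread of all genes, and the day 50 arrays and the proliferations have the narrowest. The SD between replicates over genes was 0.497 for the day 50 pair and 0.193 to 0.286 in the other 5 groups. The standard errors rest on 1 spread per gene shared by all groups. Those of the day 50 differences can therefore understate how far the day 50 pair varies. Stk11 was at 7.86 to 8.36 in the Cdkn2a/Braf/Lkb1 melanomas and 8.09 to 8.36 in the proliferations, against 8.63 to 8.90 in the Cdkn2a/Braf melanomas. The purified melanocytes do not have Lkb1 in the genotype. In them Stk11 was at 8.86 to 9.27 at day 19 with Braf, 8.96 to 8.99 with Cdkn2a only and 7.66 to 9.17 at day 50. The lower day 50 array was thus below every array with Lkb1 in the genotype. Cdkn2a lay between 6.21 and 6.75 on every array, and which exons its probe set covers relative to the altered allele was not tested.

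The melanocyte markers, which include the pigment genes Tyr, Dct and Mlana, had a summed intensity of 45466 to 48532 on the day 19 Cdkn2a/Braf arrays, 49152 to 50165 on the Cdkn2a-only arrays and 24504 to 32513 on the day 50 arrays. In tissue the same sum over 10 markers was 639 to 1061 in the Cdkn2a/Braf melanomas, 559 to 619 in the Cdkn2a/Braf/Lkb1 melanomas and 3399 to 3805 in the proliferations. The sorted cells carried the markers of their label, while Tyr averaged 4.40 and 4.16 on the log2 scale in the melanomas of the 2 genotypes, at the dim end of the arrays. Not all of the 10 were as dim. In Cdkn2a/Braf melanoma Sox10 averaged 7.59 and Kit 7.43, above the 7.27 and 7.23 of the proliferations. In Cdkn2a/Braf/Lkb1 melanoma they averaged 6.20 and 6.93. The other 8 markers were lower in the melanomas of both genotypes than in the proliferations. No marker reads 0 on this scale, since the lowest intensity in the data is 3.35. The tissue arrays measure whole lesions, so fewer cells of a type and less RNA per cell cannot be told apart in any result on tissue.

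**Figure D1:**
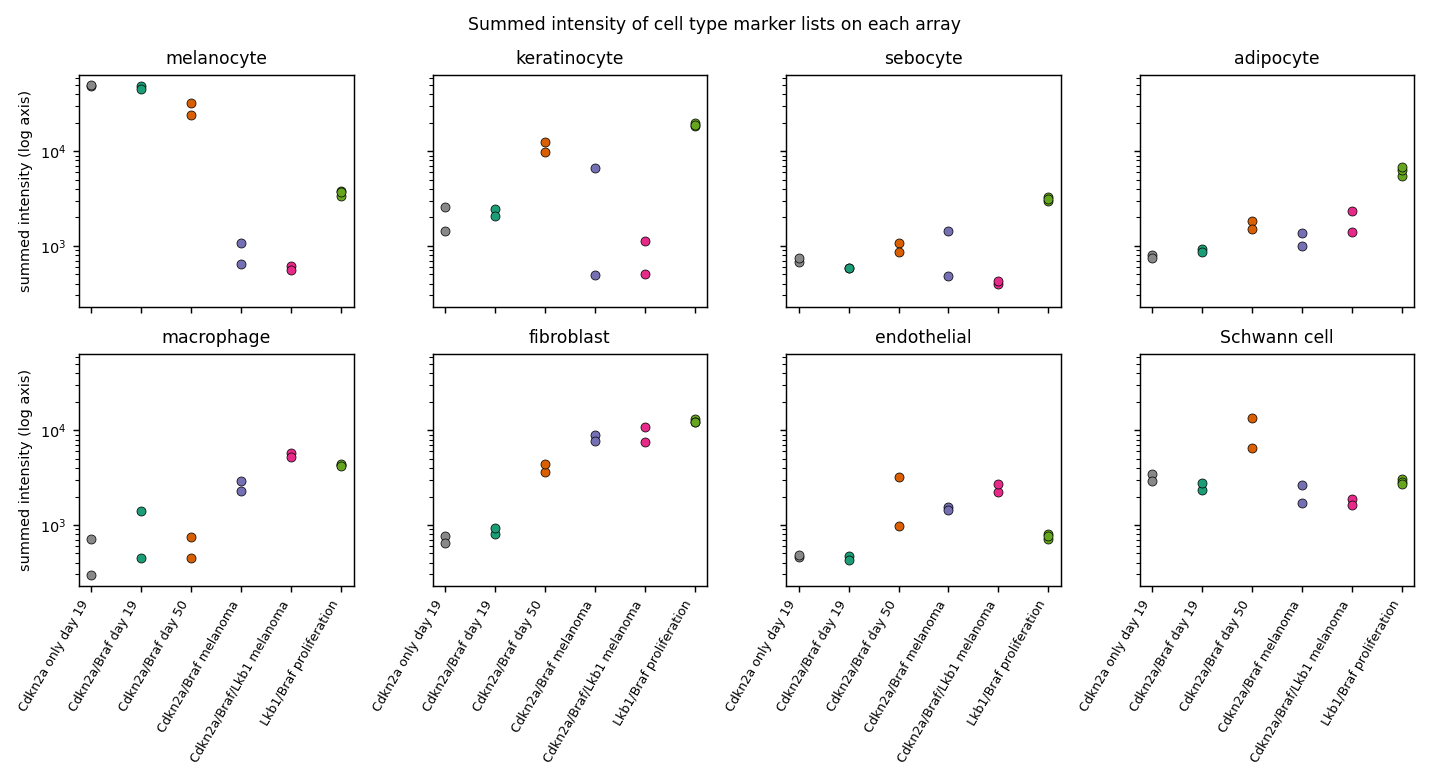
Summed intensity (log axis) of 8 lists of cell type markers on each of the 13 arrays, by group, with 1 point per array. The melanocyte sum is highest in the sorted cells and lowest in the melanomas, and the sebocyte, adipocyte and keratinocyte sums are highest in the Lkb1/Braf proliferations.

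Across the 6 groups the 32 genes did not keep 1 order. The Cdkn2a/Braf day 19 cells had the highest mean for 10 members and the Cdkn2a-only cells for 6, the proliferations for 9, the day 50 cells for 5 and each melanoma group for 1. The lowest mean was in the Cdkn2a/Braf melanomas for 16 members, in the day 50 cells for 7 and in the Cdkn2a/Braf/Lkb1 melanomas for 5. Of the 15 enzymes of the mevalonate and sterol steps, 12 had their lowest mean in the Cdkn2a/Braf melanomas and 0 had their highest mean in either melanoma group. How all genes divide by highest and lowest group mean was not counted, so these counts have no background beside them. The median of the 32 levels was 8.45 to 8.51 on the day 19 Cdkn2a/Braf arrays, 8.37 to 8.59 on the Cdkn2a-only arrays and 7.55 to 7.69 at day 50. In tissue it was 7.54 to 7.62 in the Cdkn2a/Braf melanomas, 7.82 to 7.94 in the Cdkn2a/Braf/Lkb1 melanomas and 7.88 to 8.01 in the proliferations.

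**Figure D2:**
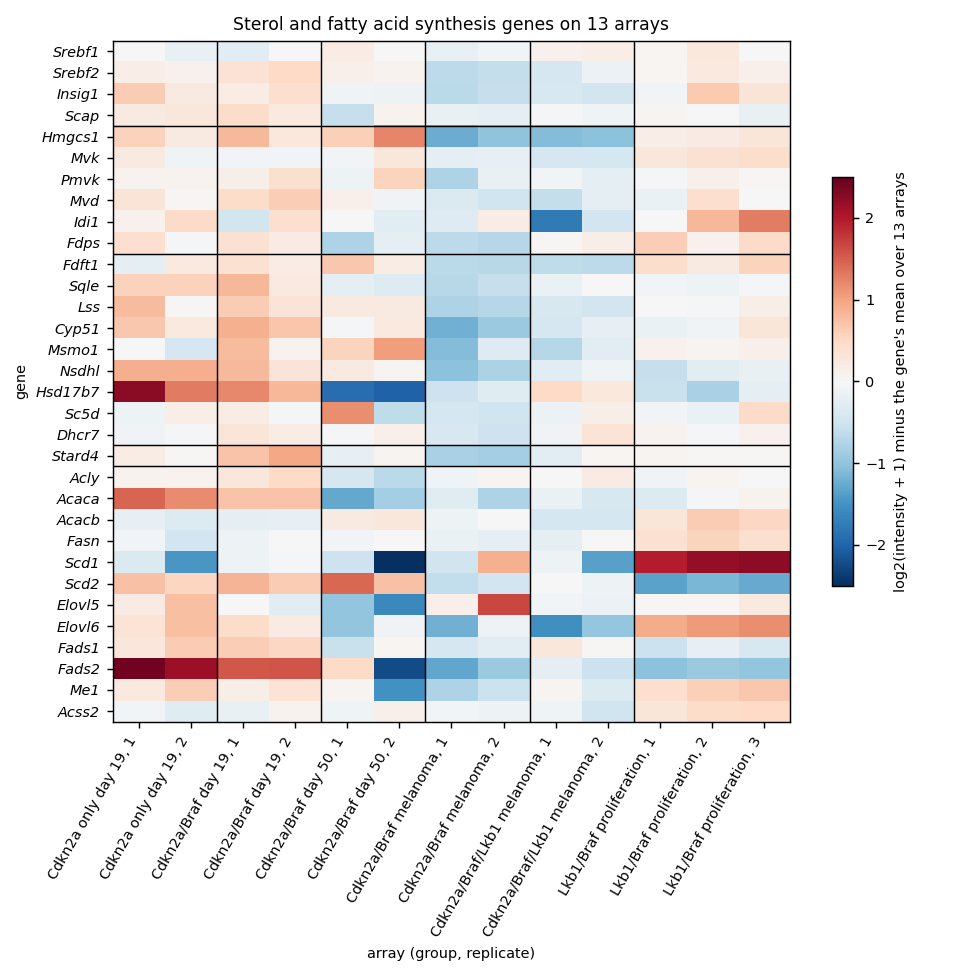
Log2(intensity + 1) of the 32 genes on the 13 arrays, each gene shown relative to its own mean over the arrays (red above, blue below), with genes ordered by role and arrays by group. The Cdkn2a/Braf melanoma columns are mostly blue in the mevalonate and sterol rows, and Scd1 and Elovl6 are red on all 3 proliferation arrays.

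The promoters of 5 members that the results turn on are shown because SREBPs act through short elements close to the start of their target genes, together with the CCAAT-binding factor NF-Y. The windows are the 250 bases before the annotated start, on the gene's own strand, from RefSeq on mouse GRCm38.p6. Capitals mark matches on either strand to an SRE-like element (TCACNCCAC), to the CCAAT box (CCAAT) and to the E-box (CACGTG), none of which overlap in these windows.
Hmgcs1, chr13:119690101-119690350, plus strand: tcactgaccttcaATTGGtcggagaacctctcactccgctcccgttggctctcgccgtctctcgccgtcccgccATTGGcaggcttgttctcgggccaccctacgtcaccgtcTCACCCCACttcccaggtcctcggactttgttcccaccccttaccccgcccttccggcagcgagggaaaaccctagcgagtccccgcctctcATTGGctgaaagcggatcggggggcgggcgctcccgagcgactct
Insig1, chr5:28071162-28071411, plus strand: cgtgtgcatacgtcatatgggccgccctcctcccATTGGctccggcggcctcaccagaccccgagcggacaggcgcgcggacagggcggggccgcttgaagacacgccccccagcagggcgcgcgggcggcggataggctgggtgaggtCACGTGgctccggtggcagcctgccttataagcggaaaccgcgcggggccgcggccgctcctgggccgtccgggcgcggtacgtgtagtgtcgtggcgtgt
Cyp51, chr5:4104698-4104947, minus strand: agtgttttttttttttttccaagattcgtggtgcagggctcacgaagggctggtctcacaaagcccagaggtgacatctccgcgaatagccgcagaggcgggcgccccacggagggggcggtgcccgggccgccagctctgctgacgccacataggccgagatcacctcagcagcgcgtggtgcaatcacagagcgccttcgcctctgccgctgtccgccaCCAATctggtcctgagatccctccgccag
Hsd17b7, chr1:169969206-169969455, minus strand: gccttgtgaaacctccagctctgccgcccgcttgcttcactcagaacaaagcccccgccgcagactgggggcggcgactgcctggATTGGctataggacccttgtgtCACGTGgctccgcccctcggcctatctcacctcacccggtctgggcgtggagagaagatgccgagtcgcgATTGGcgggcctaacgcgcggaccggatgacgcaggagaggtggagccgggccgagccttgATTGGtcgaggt
Elovl6, chr3:129532136-129532385, plus strand: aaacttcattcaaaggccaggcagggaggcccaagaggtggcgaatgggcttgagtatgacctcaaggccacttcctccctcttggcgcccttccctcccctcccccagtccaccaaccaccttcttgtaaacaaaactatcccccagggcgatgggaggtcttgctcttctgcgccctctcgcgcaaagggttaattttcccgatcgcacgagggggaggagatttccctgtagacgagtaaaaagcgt

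Hmgcs1 holds the SRE-like letters 137 to 129 bases before the start, with CCAAT boxes that begin 237, 176 and 45 bases before it. Insig1 has a CCAAT box 216 and an E-box 101 bases before the start, and Hsd17b7 has CCAAT boxes 165, 73 and 12 bases and an E-box 143 bases before it. Cyp51 has a CCAAT box 29 bases before its start, and in the Elovl6 window none of the 3 motifs was found. Windows were given for 25 of the 32 members. The SRE-like letters were in 1 of the 25 (Hmgcs1), against 1.22% of 27025 genes with a window. The CCAAT box was in 20 of 25 against 37.5%, the E-box in 6 of 25 against 6.86%, and the GC box GGGCGG, which is not capitalised above, in 19 of 25 against 35.4%. These are matches of letters and describe the windows.

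The first comparison is day 50 against day 19 in sorted Cdkn2a/Braf cells, growth-arrested against growing by the labels. Of the 32 members 10 were lower at day 50 and 1 was higher, where 14.5% of all genes were called lower and 11.1% higher. The 10 were the escort Scap, the prenyl synthase Fdps, the sterol enzymes Sqle, Cyp51 and Hsd17b7, the carrier Stard4 and the fatty acid genes Acly, Acaca, Fads1 and Fads2, and the 1 was the carboxylase Acacb. The median difference of the members was -0.43, against 0.17 for all genes. These backgrounds include many dimmer genes, since 29 of the 32 members had a mean above that of the median gene. After a filter on dim genes 2866 of 14414 genes were lower, with a median of -0.002, and the members lower stayed at 10. After scaling to a common interquartile range the medians were -0.12 for the members and -0.05 for all genes. The second comparison, Cdkn2a/Braf against Cdkn2a-only cells at day 19, asks what the Braf allele changes in growing cells. In it 0 members were called in either direction, where 0.236% of all genes were called higher and 0.0552% lower. An unadjusted p under 0.05 was found for 4 of 32 members and for 1446 of 19937 genes.

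Among the regulators, Srebf2, whose product mainly drives sterol genes, read 8.01 and 7.95 in the Cdkn2a-only cells, 8.21 and 8.34 at day 19 with Braf and 7.96 and 7.93 at day 50. The day 50 pair lay below the day 19 pair, but the difference of -0.33 ± 0.13 (adjusted p = 0.0827) was not called. Srebf1, whose product mainly drives fatty acid genes, read 7.44 and 7.27 in the Cdkn2a-only cells, 7.18 and 7.44 at day 19 with Braf and 7.64 and 7.44 at day 50, with 1 array of each sorted group at 7.44. Insig1, the sterol-dependent anchor of Scap, read 8.86 and 8.46 in the Cdkn2a-only cells, 8.41 and 8.65 at day 19 with Braf and 8.11 and 8.09 at day 50. Its day 50 arrays were both below the other 4 arrays, with a difference from day 19 of -0.43 ± 0.22 (adjusted p = 0.15), not called. Scap read 8.39 and 8.45 in the Cdkn2a-only cells, 8.61 and 8.41 at day 19 with Braf and 7.58 and 8.24 at day 50. Both day 50 arrays were below the other 4, 1 of them by far less, and Scap fell by 0.60 ± 0.20 (adjusted p = 0.0485). It kept this call in 5 of 14 alternatives and lost it under quantile normalization and under a common interquartile range.

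Of the mevalonate enzymes, Hmgcs1, which makes HMG-CoA, read 9.97 and 9.62 in the Cdkn2a-only cells, 10.21 and 9.66 at day 19 with Braf and 10.00 and 10.61 at day 50. The day 50 pair overlapped the Cdkn2a/Braf day 19 pair and lay above the Cdkn2a-only pair, and Hmgcs1 differed between day 50 and day 19 by 0.37 ± 0.23 (adjusted p = 0.224). Mvk, mevalonate kinase, read 7.31 and 6.99 in the Cdkn2a-only cells, 7.02 and 7.02 at day 19 with Braf and 7.03 and 7.37 at day 50, and Idi1, which isomerises isopentenyl pyrophosphate, read 6.51 and 6.89 in the Cdkn2a-only cells, 5.94 and 6.83 at day 19 with Braf and 6.39 and 6.15 at day 50. Neither was called. Fdps, farnesyl pyrophosphate synthase, read 8.89 and 8.43 in the Cdkn2a-only cells, 8.85 and 8.68 at day 19 with Braf and 7.70 and 8.22 at day 50. Both day 50 arrays were below all 4 day 19 arrays, and Fdps fell by 0.80 ± 0.23 (adjusted p = 0.0294). It kept this call in 6 of 14 alternatives and was at -0.31 where it was weakest, with the call lost under quantile normalization and the common interquartile range. Pmvk and Mvd, the next kinase and the decarboxylase, were not called.

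In the steps that follow squalene the sharpest change of the set was found. Hsd17b7, the keto-reductase that takes part in removing the methyl groups of lanosterol, read 10.32 and 9.37 in the Cdkn2a-only cells, 9.26 and 8.89 at day 19 with Braf and 6.15 and 6.04 at day 50. Both day 50 arrays lay more than 2 log2 units below every day 19 array, and the fall of 2.98 ± 0.29 (adjusted p = 0.000147) is 7.90-fold. It was called in all 14 alternatives, from -3.16 to -2.74. Sqle, squalene epoxidase, read 9.58 and 9.59 in the Cdkn2a-only cells, 9.85 and 9.25 at day 19 with Braf and 8.78 and 8.68 at day 50, with the day 50 pair below the 4 others. It fell by 0.82 ± 0.17 (adjusted p = 0.00931), a call kept in 9 of 14 alternatives. Cyp51, the lanosterol demethylase, read 9.23 and 8.79 in the Cdkn2a-only cells, 9.45 and 9.25 at day 19 with Braf and 8.51 and 8.79 at day 50. The day 50 pair lay below all 4 day 19 arrays, though close to the lower Cdkn2a-only array, and Cyp51 fell by 0.70 ± 0.21 (adjusted p = 0.0361), a call kept in 7 of 14. Under quantile normalization and the common interquartile range neither Sqle nor Cyp51 was called, and over the alternatives their differences came as near to 0 as -0.16 and -0.08.

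The remaining sterol enzymes did not pass the test between the days. Fdft1, squalene synthase, read 9.42 and 9.91 in the Cdkn2a-only cells, 10.05 and 9.85 at day 19 with Braf and 10.33 and 9.86 at day 50. Lss, lanosterol synthase, read 7.31 and 6.54 in the Cdkn2a-only cells, 7.14 and 6.84 at day 19 with Braf and 6.73 and 6.74 at day 50, and its day 50 values lay inside the range of the Cdkn2a-only pair. Nsdhl, a dehydrogenase of the same demethylation as Hsd17b7, read 9.96 and 9.96 in the Cdkn2a-only cells, 9.87 and 9.37 at day 19 with Braf and 9.26 and 9.11 at day 50. Dhcr7, the reductase of the last step to cholesterol, read 7.02 and 7.07 in the Cdkn2a-only cells, 7.40 and 7.27 at day 19 with Braf and 7.06 and 7.23 at day 50. In Nsdhl and Dhcr7 the day 50 arrays were below the Cdkn2a/Braf day 19 arrays, by -0.43 ± 0.19 (adjusted p = 0.111) and -0.20 ± 0.15 (adjusted p = 0.326). Msmo1 and Sc5d, oxidases of the late pathway, were not called, and Sc5d was 9.08 on 1 day 50 array and 7.28 on the other. Stard4, a cytosolic sterol carrier and known SREBP target, read 7.60 and 7.46 in the Cdkn2a-only cells, 8.13 and 8.40 at day 19 with Braf and 7.22 and 7.49 at day 50. The Cdkn2a/Braf day 19 pair was above all 4 other arrays. Stard4 fell to day 50 by 0.91 ± 0.15 (adjusted p = 0.00283), and against the Cdkn2a-only cells it differed by 0.73 ± 0.15 (adjusted p = 0.106), the smallest adjusted p of the 32 in that comparison.

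**Figure D3:**
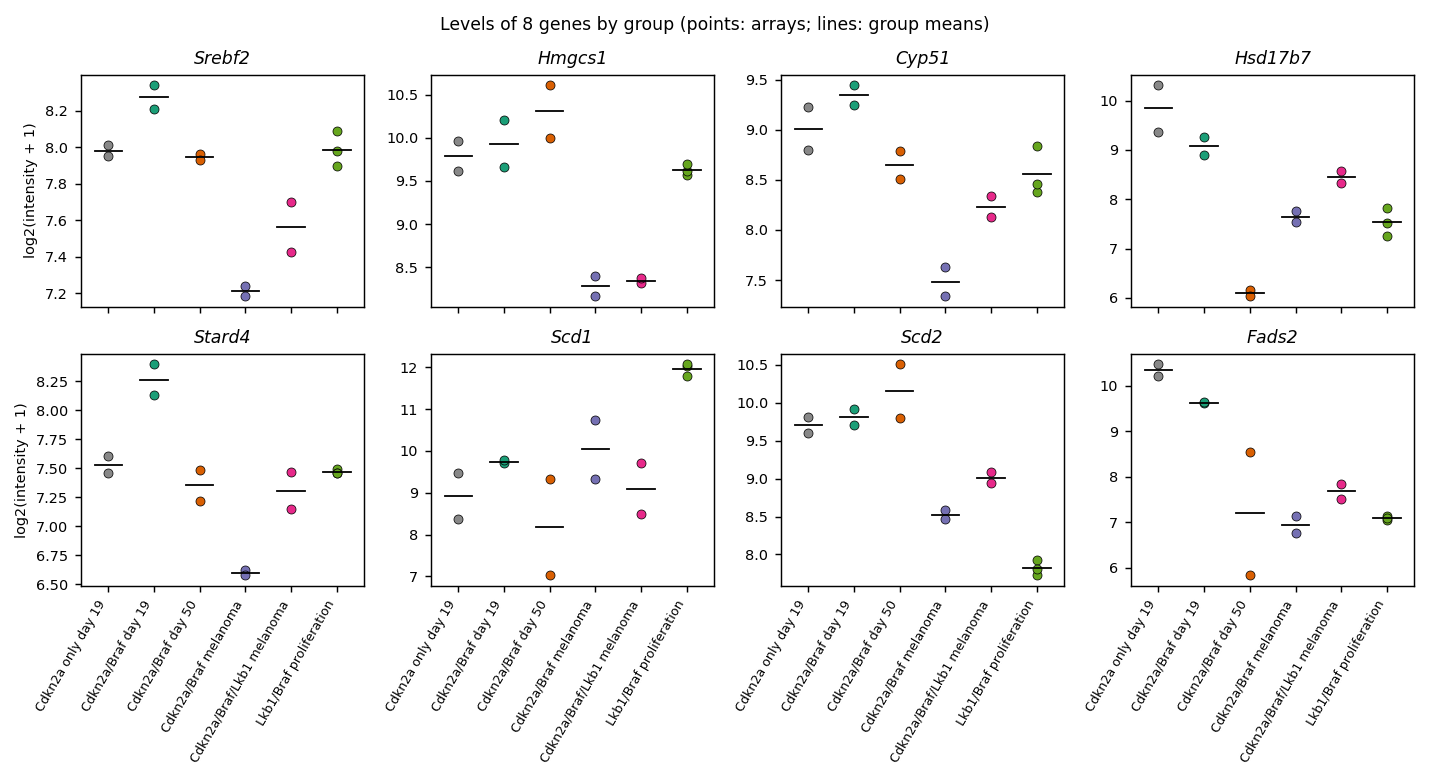
Log2(intensity + 1) of Srebf2, Hmgcs1, Cyp51, Hsd17b7, Stard4, Scd1, Scd2 and Fads2 by group, with 1 point per array and a line at each group mean. Hsd17b7 is lowest in the day 50 cells, Cyp51 and Stard4 in the Cdkn2a/Braf melanomas, and the 2 desaturase genes Scd1 and Scd2 stand in opposite order in the proliferations.

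On the fatty acid side, Acly, which splits citrate to cytosolic acetyl-CoA, read 7.79 and 7.78 in the Cdkn2a-only cells, 7.98 and 8.20 at day 19 with Braf and 7.27 and 7.02 at day 50. It was lower on both day 50 arrays, by 0.94 ± 0.14 (adjusted p = 0.00173). Acaca, the cytosolic acetyl-CoA carboxylase, read 9.85 and 9.57 in the Cdkn2a-only cells, 9.09 and 9.10 at day 19 with Braf and 7.10 and 7.54 at day 50. All 4 day 19 arrays were above 9 and both day 50 arrays below 8, a fall of 1.77 ± 0.22 (adjusted p = 0.000496), or 3.42-fold. The other Acaca probe set gave -1.72 ± 0.24. Acacb, the mitochondrial carboxylase, read 5.99 and 5.85 in the Cdkn2a-only cells, 5.96 and 5.98 at day 19 with Braf and 6.40 and 6.47 at day 50. It was the member that rose, by 0.46 ± 0.13 (adjusted p = 0.032), and kept this call in 4 of 14 alternatives.

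Fasn, the fatty acid synthase, read 7.68 and 7.28 in the Cdkn2a-only cells, 7.62 and 7.76 at day 19 with Braf and 7.69 and 7.76 at day 50. Its day 50 pair overlapped the Cdkn2a/Braf day 19 pair and lay just above the Cdkn2a-only pair, and Fasn was not called. Fads1 and Fads2 encode the desaturases that make polyunsaturated fatty acids from dietary precursors. Fads1 read 7.90 and 8.24 in the Cdkn2a-only cells, 8.23 and 8.12 at day 19 with Braf and 7.06 and 7.66 at day 50, lower on both day 50 arrays, by 0.82 ± 0.21 (adjusted p = 0.0206), but called in only 7 of 14 alternatives, with -0.44 as the weakest difference. Fads2 read 10.47 and 10.21 in the Cdkn2a-only cells, 9.62 and 9.64 at day 19 with Braf and 8.55 and 5.84 at day 50. Its day 50 arrays differ from each other by more than their mean differs from day 19: the difference of -2.43 ± 0.63 (adjusted p = 0.0209) became -1.08 without the second day 50 array and -3.79 without the first, and the call was kept in 8 of 14 alternatives.

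Scd1, a stearoyl-CoA desaturase, read 9.48 and 8.37 in the Cdkn2a-only cells, 9.71 and 9.78 at day 19 with Braf and 9.33 and 7.03 at day 50, again with 1 low day 50 array, and its difference of -1.56 ± 0.71 (adjusted p = 0.119) was not called, though without the first day 50 array it was, at -2.71. Scd2, a paralog known from mouse brain, read 9.81 and 9.60 in the Cdkn2a-only cells, 9.92 and 9.71 at day 19 with Braf and 10.51 and 9.80 at day 50. Elovl6, the elongase of saturated and monounsaturated chains, read 9.62 and 10.03 in the Cdkn2a-only cells, 9.74 and 9.48 at day 19 with Braf and 8.29 and 9.19 at day 50. Acss2, which makes acetyl-CoA from acetate, read 6.25 and 6.01 in the Cdkn2a-only cells, 6.13 and 6.40 at day 19 with Braf and 6.22 and 6.46 at day 50. None of these 3 was called between the days, nor were Elovl5, an elongase of polyunsaturated chains, and Me1, the NADPH-making malic enzyme.

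Other genes of the pathways were taken from 3 lists. Of all genes 14.5% were called lower and 11.1% higher at day 50. Of 8 measured further sterol genes 6 were lower at day 50 and 0 higher, with a median of -1.12. They included Insig2, the second sterol anchor, at -1.94 ± 0.23, Nus1 and Dhdds, the subunits that make dolichol precursors, at -1.29 ± 0.23 and -1.23 ± 0.18, and Ggps1, the geranylgeranyl pyrophosphate synthase, at -1.23 ± 0.17. Of 12 genes of sterol efflux and trafficking 7 were lower and 0 higher. Cyp27a1, a sterol hydroxylase, was at -2.45 ± 0.22, Mylip, which degrades lipoprotein receptors, at -2.39 ± 0.28, and Npc1, the lysosomal cholesterol exporter, at -1.25 ± 0.24. Of 23 further fatty acid genes 5 were lower, led by the acyl-CoA ligase Acsl4 at -1.84 ± 0.28, and 1 was higher, the ligase Acsl5 at 1.07 ± 0.14. Between the Braf genotypes at day 19 the 3 lists held 1 call, Cyp27a1, higher by 1.52 ± 0.22 in Cdkn2a/Braf cells. In that comparison 0.236% of all genes were called higher.

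Markers of other cells moved with day 50. All 6 endothelial markers were higher, with sums of 3245 and 976 on the first and second day 50 arrays against 424 to 466 at day 19. Of 5 Schwann cell markers 4 were higher, with sums of 13629 and 6589 in the same order against 2341 to 2765. Of 6 fibroblast markers 4 were higher and 1 lower. The keratinocyte sum was 9922 to 12499 against 2048 to 2429, with 1 of 8 markers called, and 6 of 10 melanocyte markers were lower. The adipocyte sum was 1514 to 1845 against 869 to 917, with 2 of 9 markers (Plin1 and Fabp4) higher, and the sebocyte sum 856 to 1081 against 580 to 589, with 0 of 10 called and 2 at an unadjusted p under 0.05. Of 6 macrophage markers 1 was higher and 1 lower. The part of these cells in the differences of the lipid genes was not tested. The count of members lower at day 50 was 3 under quantile normalization, 4 after scaling to a common interquartile range, 4 and 5 without the first and the second day 19 array, and 1 in a fit on the 4 arrays alone, and under those 2 scalings 3 and 4 members were called higher at day 50, among them Hmgcs1 and Scd2 under both.

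**Figure D4:**
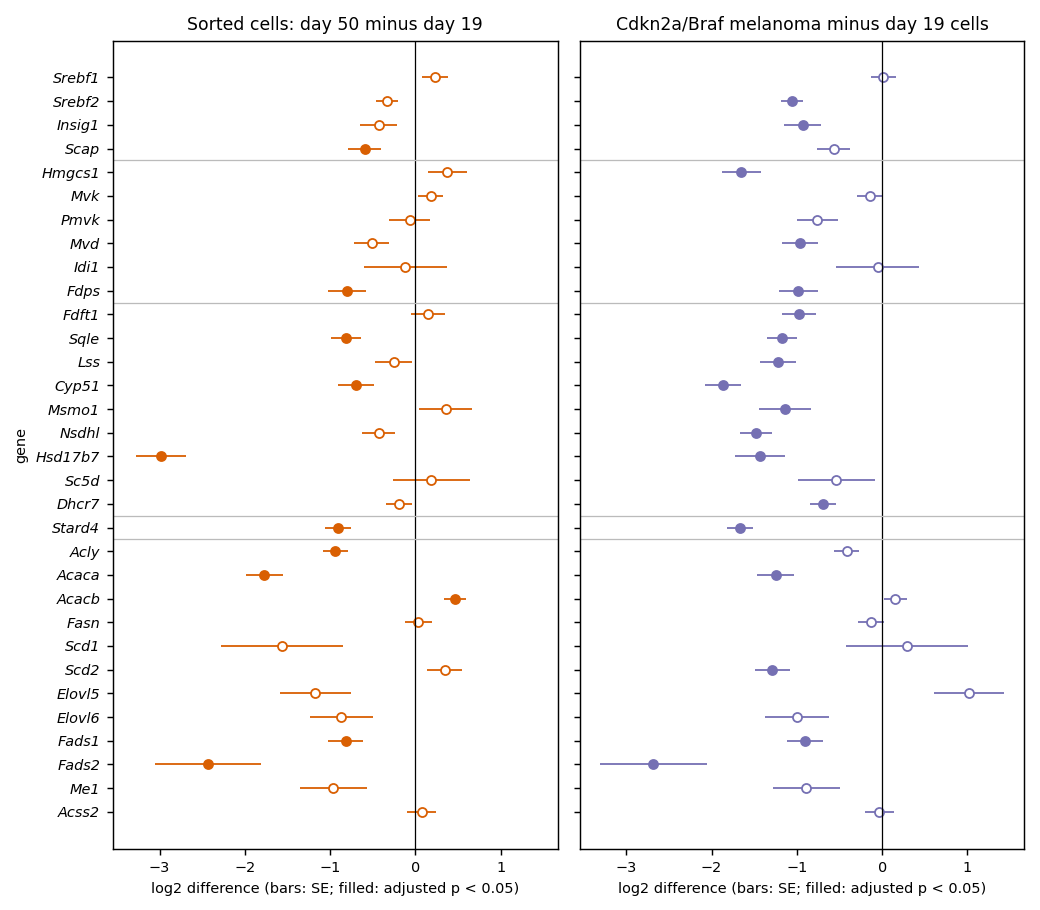
Log2 differences of the 32 genes from the Cdkn2a/Braf day 19 cells, for the day 50 cells (left) and the Cdkn2a/Braf melanomas (right), with bars of 1 standard error and filled points where the adjusted p is under 0.05. Both panels subtract the same 2 day 19 arrays. Most filled points lie left of 0, and Hsd17b7 and Fads2 lie furthest left at day 50.

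In tissue, the lipid genes were compared between melanomas and the Lkb1/Braf proliferations. The Cdkn2a/Braf melanomas were lower in 17 of 32 members and higher in 1, where 8.88% of all genes were called lower and 12.6% higher, with a median of -0.56 against -0.02 for all genes. The 17 were 2 of 4 regulators, 3 of 6 mevalonate enzymes, 6 of 9 sterol enzymes, Stard4 and 5 of 12 fatty acid genes. The Cdkn2a/Braf/Lkb1 melanomas, which share Lkb1 and Braf with the proliferations and differ in Cdkn2a, were lower in 11 members and higher in 3, where 20.6% of all genes were called lower and 20% higher, with a median of -0.32 against -0.04. By role the 11 were 2 regulators, 3 mevalonate enzymes, 1 sterol enzyme and 5 fatty acid genes. Both comparisons subtract the same 3 proliferation arrays, so their values are set side by side and not counted as independent.

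Srebf2 read 7.90, 8.09 and 7.98 in the proliferations, 7.19 and 7.24 in Cdkn2a/Braf melanoma and 7.43 and 7.70 in Cdkn2a/Braf/Lkb1 melanoma. All 4 melanoma arrays were below the 3 proliferation arrays, the Cdkn2a/Braf melanomas by 0.77 ± 0.12 (adjusted p = 0.00165) and the Cdkn2a/Braf/Lkb1 melanomas by 0.42 ± 0.12 (adjusted p = 0.0181). Insig1 read 8.17, 8.87 and 8.54 in the proliferations, 7.55 and 7.65 in Cdkn2a/Braf melanoma and 7.82 and 7.77 in Cdkn2a/Braf/Lkb1 melanoma, and all melanoma arrays were again below, by 0.93 ± 0.20 (adjusted p = 0.00879) and 0.74 ± 0.20 (adjusted p = 0.0147) in the same order. Srebf1 read 7.50, 7.71 and 7.44 in the proliferations, 7.26 and 7.39 in Cdkn2a/Braf melanoma and 7.56 and 7.61 in Cdkn2a/Braf/Lkb1 melanoma and Scap read 8.23, 8.14 and 7.97 in the proliferations, 7.97 and 7.91 in Cdkn2a/Braf melanoma and 8.12 and 8.04 in Cdkn2a/Braf/Lkb1 melanoma, and neither was called.

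Hmgcs1 read 9.56, 9.61 and 9.69 in the proliferations, 8.17 and 8.39 in Cdkn2a/Braf melanoma and 8.32 and 8.37 in Cdkn2a/Braf/Lkb1 melanoma. The melanomas of both genotypes lay more than 1 log2 unit below the proliferations, by 1.34 ± 0.21 (adjusted p = 0.00184) in Cdkn2a/Braf and 1.28 ± 0.21 (adjusted p = 0.00139) in Cdkn2a/Braf/Lkb1 melanoma, and both calls held in all 15 alternatives. Mvk read 7.38, 7.48 and 7.53 in the proliferations, 6.88 and 6.88 in Cdkn2a/Braf melanoma and 6.68 and 6.66 in Cdkn2a/Braf/Lkb1 melanoma, with all melanoma arrays below, by 0.58 ± 0.14 (adjusted p = 0.0134) and 0.79 ± 0.14 (adjusted p = 0.00175). Fdps read 9.09, 8.57 and 8.95 in the proliferations, 7.81 and 7.75 in Cdkn2a/Braf melanoma and 8.50 and 8.63 in Cdkn2a/Braf/Lkb1 melanoma. The Cdkn2a/Braf melanomas were below the rest, by 1.09 ± 0.21 (adjusted p = 0.00503), whereas the difference of the Cdkn2a/Braf/Lkb1 melanomas was -0.30 ± 0.21 (adjusted p = 0.26). Idi1 read 6.40, 7.23 and 7.68 in the proliferations, 6.09 and 6.58 in Cdkn2a/Braf melanoma and 4.64 and 5.93 in Cdkn2a/Braf/Lkb1 melanoma. Its 1-gene probe sets disagree: the set used gave -0.77 ± 0.45 (adjusted p = 0.249) for Cdkn2a/Braf melanoma and -1.82 ± 0.45 (adjusted p = 0.00977) for Cdkn2a/Braf/Lkb1 melanoma, and the other set -1.69 ± 0.45 (adjusted p = 0.0241) and -1.51 ± 0.45 (adjusted p = 0.0231).

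Fdft1 read 10.09, 9.88 and 10.22 in the proliferations, 8.98 and 8.96 in Cdkn2a/Braf melanoma and 9.03 and 9.00 in Cdkn2a/Braf/Lkb1 melanoma. Every melanoma array was below every proliferation array, by 1.09 ± 0.18 (adjusted p = 0.00279) and 1.05 ± 0.18 (adjusted p = 0.00202), in all 15 alternatives of each. Sqle read 8.94, 8.88 and 8.98 in the proliferations, 8.32 and 8.43 in Cdkn2a/Braf melanoma and 8.85 and 9.02 in Cdkn2a/Braf/Lkb1 melanoma. Lss read 6.50, 6.48 and 6.67 in the proliferations, 5.74 and 5.80 in Cdkn2a/Braf melanoma and 6.11 and 6.05 in Cdkn2a/Braf/Lkb1 melanoma. Cyp51 read 8.38, 8.46 and 8.84 in the proliferations, 7.34 and 7.63 in Cdkn2a/Braf melanoma and 8.13 and 8.34 in Cdkn2a/Braf/Lkb1 melanoma. In all of these the Cdkn2a/Braf melanomas were lowest, and against the proliferations they were lower by 0.56 ± 0.16 (adjusted p = 0.0324) in Sqle, 0.78 ± 0.20 (adjusted p = 0.0188) in Lss and 1.08 ± 0.19 (adjusted p = 0.00352) in Cyp51, while for the Cdkn2a/Braf/Lkb1 melanomas none of them was called. That contrast depends on the scaling: under quantile normalization and the common interquartile range the Cdkn2a/Braf/Lkb1 melanomas were called lower too, at -0.62 and -0.64 in Sqle and at -0.93 and -0.79 in Cyp51, and Fdps was also called there. Lss was called in them in the fits on the tissue arrays and on the 2 groups. The Sqle call in Cdkn2a/Braf melanoma was kept in 7 of 15 alternatives and that of Lss in 11.

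Nsdhl read 8.47, 8.77 and 8.86 in the proliferations, 8.02 and 8.25 in Cdkn2a/Braf melanoma and 8.76 and 8.95 in Cdkn2a/Braf/Lkb1 melanoma. Dhcr7 read 7.19, 7.06 and 7.20 in the proliferations, 6.70 and 6.58 in Cdkn2a/Braf melanoma and 7.01 and 7.44 in Cdkn2a/Braf/Lkb1 melanoma. Both were lower in the Cdkn2a/Braf melanomas than in the proliferations, by 0.56 ± 0.17 (adjusted p = 0.0438) and 0.51 ± 0.14 (adjusted p = 0.0269), and in both the Cdkn2a/Braf/Lkb1 melanomas overlapped the proliferations. These calls were kept in 8 and 9 of 15 alternatives, and both were lost under median centring, with the replicate block and without either melanoma array. Hsd17b7 read 7.51, 7.26 and 7.83 in the proliferations, 7.54 and 7.75 in Cdkn2a/Braf melanoma and 8.56 and 8.32 in Cdkn2a/Braf/Lkb1 melanoma. It went the other way in Cdkn2a/Braf/Lkb1 melanoma, higher than the proliferations by 0.91 ± 0.26 (adjusted p = 0.0207), a call lost under quantile normalization, under the common interquartile range and when any of 3 arrays was left out. Msmo1 and Sc5d were called in neither, though Msmo1 was called lower in the melanomas of both genotypes under quantile normalization and the common interquartile range. Stard4 read 7.50, 7.46 and 7.46 in the proliferations, 6.62 and 6.58 in Cdkn2a/Braf melanoma and 7.15 and 7.47 in Cdkn2a/Braf/Lkb1 melanoma. The Cdkn2a/Braf melanoma pair was below the other 5 tissue arrays, and below the proliferations by 0.87 ± 0.14 (adjusted p = 0.00217).

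The fatty acid genes held the widest differences in tissue. Scd1 read 11.80, 12.04 and 12.08 in the proliferations, 9.34 and 10.73 in Cdkn2a/Braf melanoma and 9.71 and 8.48 in Cdkn2a/Braf/Lkb1 melanoma. All 3 proliferation arrays were at 11.80 or above and all 4 melanoma arrays below 11, and the difference was -2.88 ± 0.65 (adjusted p = 0.00685) for Cdkn2a/Braf/Lkb1 melanoma and -1.93 ± 0.65 (adjusted p = 0.059) for Cdkn2a/Braf melanoma. Scd2 read 7.73, 7.93 and 7.81 in the proliferations, 8.46 and 8.59 in Cdkn2a/Braf melanoma and 9.09 and 8.94 in Cdkn2a/Braf/Lkb1 melanoma. Its order was the reverse, with every melanoma array above every proliferation array, by 0.70 ± 0.19 (adjusted p = 0.0261) and 1.19 ± 0.19 (adjusted p = 0.00122). Scd1 and Scd2 are close paralogs on neighbouring stretches of the genome, and how far their probes are shared was not tested. The Scd2 call in Cdkn2a/Braf melanoma was kept in 8 of 15 alternatives and lost under quantile normalization and the common interquartile range, with 0.34 as its smallest difference, and that in Cdkn2a/Braf/Lkb1 melanoma was kept in all 15.

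Elovl6 read 10.20, 10.33 and 10.43 in the proliferations, 8.08 and 9.15 in Cdkn2a/Braf melanoma and 7.74 and 8.31 in Cdkn2a/Braf/Lkb1 melanoma. It was lower in all 4 melanoma arrays, by 1.71 ± 0.34 (adjusted p = 0.00633) in Cdkn2a/Braf melanoma and 2.29 ± 0.34 (adjusted p = 0.000795) in Cdkn2a/Braf/Lkb1 melanoma, the latter 4.91-fold. Fasn read 8.13, 8.31 and 8.16 in the proliferations, 7.60 and 7.53 in Cdkn2a/Braf melanoma and 7.52 and 7.76 in Cdkn2a/Braf/Lkb1 melanoma. Acacb read 6.50, 6.83 and 6.71 in the proliferations, 6.06 and 6.19 in Cdkn2a/Braf melanoma and 5.74 and 5.75 in Cdkn2a/Braf/Lkb1 melanoma. Acss2 read 6.62, 6.78 and 6.81 in the proliferations, 6.26 and 6.20 in Cdkn2a/Braf melanoma and 6.21 and 5.82 in Cdkn2a/Braf/Lkb1 melanoma. In each of these 3 all melanoma arrays were below all proliferation arrays, and the differences of the Cdkn2a/Braf/Lkb1 melanomas were -0.56 ± 0.14 (adjusted p = 0.012), -0.93 ± 0.12 (adjusted p = 0.000422) and -0.72 ± 0.16 (adjusted p = 0.0058). Those of the Cdkn2a/Braf melanomas were -0.64 ± 0.14 (adjusted p = 0.0113), -0.55 ± 0.12 (adjusted p = 0.0107) and -0.51 ± 0.16 (adjusted p = 0.0443). The Acss2 call in Cdkn2a/Braf melanoma was kept in 6 of 15 alternatives, and was lost under each of the 3 scalings and without any 1 of the 5 arrays.

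Acly read 7.60, 7.76 and 7.70 in the proliferations, 7.59 and 7.76 in Cdkn2a/Braf melanoma and 7.68 and 7.90 in Cdkn2a/Braf/Lkb1 melanoma and Acaca read 8.04, 8.33 and 8.48 in the proliferations, 8.09 and 7.60 in Cdkn2a/Braf melanoma and 8.21 and 7.98 in Cdkn2a/Braf/Lkb1 melanoma. Neither was called in tissue, and their tissue groups overlapped. The other Acaca probe set was called lower in Cdkn2a/Braf melanoma, at -0.81 ± 0.22 (adjusted p = 0.0246), and Acaca was called lower in the melanomas of both genotypes under quantile normalization and the common interquartile range. Fads1 read 7.07, 7.41 and 7.22 in the proliferations, 7.20 and 7.35 in Cdkn2a/Braf melanoma and 7.89 and 7.64 in Cdkn2a/Braf/Lkb1 melanoma. It was higher in the Cdkn2a/Braf/Lkb1 melanomas than in the proliferations, by 0.53 ± 0.19 (adjusted p = 0.0474), and kept this call in 6 of 15 alternatives. Fads2 read 7.05, 7.13 and 7.08 in the proliferations, 6.76 and 7.13 in Cdkn2a/Braf melanoma and 7.83 and 7.52 in Cdkn2a/Braf/Lkb1 melanoma and was not called. Me1 was lower in the Cdkn2a/Braf melanomas by 1.21 ± 0.36 (adjusted p = 0.037), but its other probe set gave -0.73 ± 0.34 (adjusted p = 0.153), and the call was lost with the replicate block and without any 1 of the 5 arrays. Elovl5, at 10.42 on 1 of the 2 Cdkn2a/Braf melanoma arrays and 8.88 on the other, was not called.

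Of the wider lists, the further sterol genes went up in the melanomas where called. Of all genes 20% were called higher and 20.6% lower in Cdkn2a/Braf/Lkb1 melanoma, and 12.6% and 8.88% in Cdkn2a/Braf melanoma. In Cdkn2a/Braf/Lkb1 melanoma 4 of 8 were higher and 0 lower, with Nus1 at 1.64 ± 0.21, Ggps1 at 1.25 ± 0.16, Mbtps1, the protease that cuts SREBPs, at 0.76 ± 0.25 and Dhdds at 0.74 ± 0.17, and in Cdkn2a/Braf melanoma 3 of 8. Of the 12 efflux and trafficking genes 4 were higher and 1 lower in Cdkn2a/Braf/Lkb1 melanoma. Ch25h, a cholesterol hydroxylase of immune and other cells, was at 2.18 ± 0.20 there and 2.44 ± 0.20 in Cdkn2a/Braf melanoma, and the lipoprotein gene Apoe was lower, at -1.25 ± 0.37. Of the 23 further fatty acid genes 10 were lower and 2 higher in Cdkn2a/Braf/Lkb1 melanoma, and 8 lower and 1 higher in Cdkn2a/Braf melanoma. The lower ones included Elovl4, an elongase of very long chains in epidermis, at -4.52 ± 0.83 and -3.34 ± 0.83, Thrsp, a regulator of lipid synthesis, at -2.89 ± 0.37 and -2.24 ± 0.37, and Dgat2, which makes triglyceride, at -2.41 ± 0.18 and -2.47 ± 0.18.

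Markers of lipid-making skin cells moved with these results. The sebocyte sum was 2980 to 3316 in the proliferations, 479 to 1447 in the Cdkn2a/Braf melanomas and 392 to 425 in the Cdkn2a/Braf/Lkb1 melanomas, and 7 and 10 of its 10 markers were lower in these melanomas. The adipocyte sum was 5472 to 6860, 1003 to 1370 and 1408 to 2316 in the same order, with 7 of 9 markers lower in each. The keratinocyte sum was 18305 to 20141 in the proliferations and 509 to 1122 in the Cdkn2a/Braf/Lkb1 melanomas, and 496 and 6626 on the 2 Cdkn2a/Braf melanoma arrays. Their part in the differences was not tested. The sebocyte list shares Elovl3 and Scd3 with the list of further fatty acid genes.

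For the Cdkn2a/Braf melanomas the count of members lower than the proliferations was 6 without the first melanoma array, 10 without the second and 11 without the third proliferation array, and 10 with the replicate number as a block. For the Cdkn2a/Braf/Lkb1 melanomas it was 7 without their first array, 17 after scaling to a common interquartile range and 19 under quantile normalization.

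**Figure D5:**
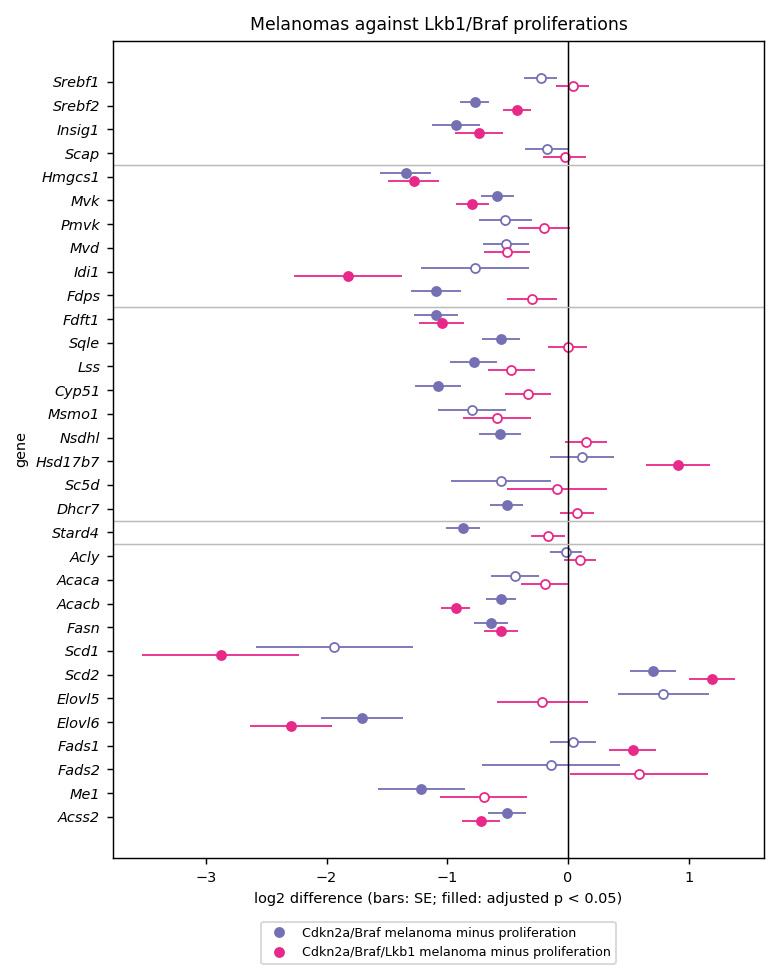
Log2 differences of the 32 genes between melanomas and the Lkb1/Braf proliferations, for Cdkn2a/Braf (violet) and Cdkn2a/Braf/Lkb1 (pink) melanoma, with bars of 1 standard error and filled points where the adjusted p is under 0.05. Both sets of points subtract the same 3 proliferation arrays. Scd1 and Elovl6 lie furthest left, and Scd2 is right of 0 in both.

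The melanomas of the 2 genotypes, which differ in Lkb1, were then compared directly. In Cdkn2a/Braf/Lkb1 against Cdkn2a/Braf melanoma 1 member was higher and 0 were lower, where 1.83% of all genes were called higher and 0.732% lower, so the count is near the background. The member was Stard4, higher by 0.70 ± 0.15 (adjusted p = 0.0431), and it kept the call in 6 of 15 alternatives. Another 11 members had an unadjusted p under 0.05 without passing the adjustment, among them Dhcr7 at 0.58 ± 0.15 (adjusted p = 0.0761), Nsdhl at 0.72 ± 0.19 (adjusted p = 0.0801), Cyp51 at 0.75 ± 0.21 (adjusted p = 0.0899) and Fdps at 0.79 ± 0.23 (adjusted p = 0.0977). The difference was above 0 for all 4 regulators, 4 of 6 mevalonate enzymes, 9 of 9 sterol enzymes, Stard4 and 7 of 12 fatty acid genes. For the sterol enzymes it ran from 0.05 to 0.80. Of all 19937 genes 8975 were above 0, and 3820 had an unadjusted p under 0.05. The sign turned on the probe set for Idi1, at -1.05 in the set used and 0.17 in the other. The same held for Me1, at 0.52 and -0.12. The median of the members was 0.26, against -0.04 for all genes, and 0.13 after scaling to a common interquartile range. All of the 3 wider lists had 0 calls in limma's test, and 6 of the 23 further fatty acid genes and 0 of the genes of both sterol lists had an unadjusted p under 0.05. The macrophage sum was 5253 to 5779 in the Cdkn2a/Braf/Lkb1 and 2287 to 2899 in the Cdkn2a/Braf melanomas, with 1 of 6 markers (Cd68) called higher, and of 6 fibroblast markers Col1a1 was called higher. All 10 sebocyte and all 8 keratinocyte markers were below 0 with none called, 5 and 1 of them at an unadjusted p under 0.05. The sebocyte sum was 392 to 425 against 479 to 1447. The part of these cells was not tested.

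Against the growing Cdkn2a/Braf cells at day 19, the Cdkn2a/Braf melanomas were lower in 18 of 32 members and higher in 0, where 5.46% of all genes were called lower and 7.17% higher. The comparison sets whole tissue against sorted cells of the same genotype, so material and state cannot be told apart. Of the mevalonate and sterol enzymes 11 of 15 were lower, with the other 4 (Mvk, Pmvk, Idi1, Sc5d) below 0 and not called. The median of the members was -0.95, against -0.04 for all genes.

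The array values are those given above for each group, except for Mvd, which read 7.25 and 7.41 at day 19 and 6.43 and 6.30 in the Cdkn2a/Braf melanomas. Srebf2 was lower by 1.06 ± 0.13 (adjusted p = 0.000395) and Insig1 by 0.93 ± 0.22 (adjusted p = 0.0175). Hmgcs1 was lower by 1.65 ± 0.23 (adjusted p = 0.000901), or 3.14-fold, and Mvd, the decarboxylase, by 0.97 ± 0.21 (adjusted p = 0.0122). Among the sterol enzymes Cyp51 was lower by 1.86 ± 0.21 (adjusted p = 0.000227), or 3.64-fold, Nsdhl by 1.48 ± 0.19 (adjusted p = 0.000565), Hsd17b7 by 1.43 ± 0.29 (adjusted p = 0.0085), Lss by 1.22 ± 0.22 (adjusted p = 0.00384) and Sqle by 1.17 ± 0.17 (adjusted p = 0.00141). In each of these genes both melanoma arrays were below both day 19 arrays. Stard4, lower by 1.66 ± 0.15 (adjusted p = 6.76e-05), had the smallest adjusted p of the 32.

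On the fatty acid side 4 of 12 were lower: Fads2 by 2.69 ± 0.63 (adjusted p = 0.0181), Scd2 by 1.29 ± 0.21 (adjusted p = 0.00238), Acaca by 1.25 ± 0.22 (adjusted p = 0.00369) and Fads1 by 0.90 ± 0.21 (adjusted p = 0.0177). The Fads2 call was kept in 8 of 13 alternatives and lost under the common interquartile range, and the calls of Fads1 and Insig1 were each kept in 9. Fasn was at -0.13 ± 0.16 (adjusted p = 0.75) and Acly at -0.42 ± 0.14 (adjusted p = 0.0985), neither called. Of the wider lists, Npc1 was at -2.10 ± 0.24, Mylip at -2.28 ± 0.28, the phosphatidate phosphatase Lpin1 at -1.96 ± 0.30 and Ch25h at 2.58 ± 0.22. By list, 2 of 8 further sterol genes were lower and 0 higher, 3 of 12 efflux and trafficking genes were lower and 1 higher, and 5 of 23 further fatty acid genes were lower and 3 higher. Of all genes 5.46% were called lower and 7.17% higher. Melanocyte markers were lower in 9 of 10 and fibroblast markers higher in 6 of 6, and their part in the result was not tested. The count of lower members was 9 without the first day 19 array, and 9 of the 18 kept their call in all 13 alternatives (Srebf2, Hmgcs1, Sqle, Lss, Cyp51, Nsdhl, Stard4, Acaca, Scd2).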

How the data were processed

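Gene expression of 6 groups of mouse samples was measured on 13 Affymetrix whole-transcript arrays, after extraction with Qiagen RNeasy and amplification and labelling with NuGEN reagents, per the labels' protocols. The authors deposited linear intensities (3.35 to 17698), made with RMA, per the submitters' processing notes. The version of RMA, the genome build and the step from RMA's log2 output to linear values are not given in the sources used here. RMA usually brings the values of single probes to a common distribution across arrays, before they are summarised by probe set. The interquartile ranges over genes given here, 1.93 to 2.89 on the log2 scale, come after that summary. They do not tell whether this step was run, which was not tested. The precision is limited by how few arrays a group has.

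Of 34760 probe sets, 21640 name 1 gene in the platform table, 1321 name several and were left out, and 11799 are not listed. They gave 19937 genes, with the probe set of highest mean log2 value used for the 954 genes with several. A model of 6 group means over 13 arrays was fitted to log2(intensity + 1) with limma 3.58.1 (R 4.3.3; 7 residual and 3.08 prior degrees of freedom), and two-sided p-values were adjusted by Benjamini-Hochberg across the 19937 genes, with 0.05 as the threshold. Tables and plots were made with Python 3.11.15, pandas 2.3.3, numpy 2.4.6 and matplotlib 3.10.9. The fit was tested on simulated data first.

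The 32 genes and the lists of other pathway genes and cell type markers were chosen with earlier results of these data known. By rule, array values are given for the regulators, for members called in 2 or more comparisons and for the 5 called members with the largest difference in each comparison; from the wider pathway lists at most 5 called genes a list and comparison are named. Of the 3 wider lists 8 of 14, 12 of 14 and 23 of 26 genes were measured, of the Schwann cell list 5 of 8 and of the adipocyte list 9 of 10, and the rest are not analysed here. The alternatives were the pseudocount (16), the mean of probe sets, a filter on dim genes (log2 above 6 on 2 arrays), 3 scalings, other sets of arrays, other moderation, a replicate block and leaving out each array. A crossed block was chosen after seeing the data.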

Additional observations from a re-analysis of the deposited data

How the results depend on the processing

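The counts of called members were recomputed under 13 to 15 alternatives a comparison, and in none of these did a called member change its sign. The crossed block was run only between the melanoma genotypes, and the fit on arrays of the same material could not be made for melanoma against day 19. Between the 2 day 19 genotypes the counts stayed at 0 throughout. For day 50 against day 19 (1 member higher, 10 lower) the counts were 0 and 1 in a fit on the arrays of the 2 groups, 0 and 4 on the sorted arrays, 4 and 4 with a common interquartile range and 3 and 3 under quantile normalization, and median centring gave 0 higher. For Cdkn2a/Braf/Lkb1 against Cdkn2a/Braf melanoma (1 higher, 0 lower) the higher count was 0 in a fit on the 2 groups, with a common interquartile range, under quantile normalization and with trend and robust moderation. Against the proliferations, the Cdkn2a/Braf/Lkb1 melanomas (3 higher, 11 lower) had 1 and 17 with a common interquartile range and 1 and 19 under quantile normalization, and the Cdkn2a/Braf melanomas (1 higher, 17 lower) had 0 higher under both. The cause of these shifts was not tested.

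Leaving out each array in turn gave 0 to 2 members higher and 4 to 11 lower for day 50 against day 19, 0 to 2 and 0 to 1 between the melanoma genotypes, 1 to 2 and 7 to 12 for Cdkn2a/Braf/Lkb1 melanoma and 0 to 1 and 6 to 13 for Cdkn2a/Braf melanoma against the proliferations, and 0 to 1 and 9 to 13 for Cdkn2a/Braf melanoma against day 19. The 1 lower gene between the melanoma genotypes was Elovl5, without the first Cdkn2a/Braf melanoma array.

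The labels number the replicates but tie no number to a shared animal or day, and deviations of same-numbered arrays correlated at -0.12 to 0.06, so the numbers were not taken as pairs. With the replicate number as a block the counts were 0 higher for day 50 against day 19, 0 higher between the melanoma genotypes, and 0 higher and 10 lower for Cdkn2a/Braf melanoma against the proliferations. With the numbers crossed between the melanoma genotypes 0 members were called, and 240 genes were higher and 93 lower against 364 and 146.

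Scaling also moved the split over all genes. Median centring changed 2211 higher and 2884 lower at day 50 to 1034 and 3263, 3991 and 4099 for Cdkn2a/Braf/Lkb1 melanoma against the proliferations to 4802 and 2801, and 1430 and 1088 for Cdkn2a/Braf melanoma against day 19 to 1210 and 1542. A common interquartile range gave 5111 and 2688 for the second of these, and 189 and 130 between the melanoma genotypes. For Cdkn2a/Braf melanoma against the proliferations 2507 and 1770 became 3014 and 1381 under centring and 1461 and 1743 under quantile normalization. The common interquartile range moved the median of all genes from 0.17 to -0.05 at day 50, from -0.04 to 0.16 and from -0.02 to 0.14 for the Cdkn2a/Braf/Lkb1 and Cdkn2a/Braf melanomas against the proliferations, and from -0.04 to -0.15 against day 19. The medians of the members then were -0.12, -0.62, -0.72 and -0.93. All counts of genes rest on 2 or 3 arrays a group, so small differences can be missed.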

Other observations

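Among the 32 genes the means of the 6 groups spanned the widest range for Scd1, at 3.79 log2 units between the proliferations and the day 50 cells, followed by Hsd17b7 at 3.75 and Fads2 at 3.40, and the narrowest for a regulator was 0.28 for Srebf1. Of the 32 members 4 (Srebf1, Pmvk, Sc5d, Elovl5) were called in none of the 6 comparisons. Cdkn2a/Braf cells at day 19 are the common reference of 2 comparisons, and 8 members (Fdps, Sqle, Cyp51, Hsd17b7, Stard4, Acaca, Fads1, Fads2) were lower than that reference both at day 50 and in Cdkn2a/Braf melanoma. The reference arrays are shared and the number of all genes lower in both was not counted, so this count is a description.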
